A study of Mus musculus with 6 samples.

Results

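The libraries described here are the atherosclerotic brachiocephalic arteries with many transcripts of sympathetic neurons, set against the arteries with few. They were chosen by the count of Th, which encodes tyrosine hydroxylase, divided by the total count of the library and scaled to CPM (counts per 1e6 counts): 2 of the 6 libraries, WT 2 and KO 3, were above 100 CPM, and the other 4 (WT 1, WT 3, KO 1 and KO 2) were below. The lowest library above the limit, WT 2, had 336 CPM of Th and the highest below it, WT 3, had 26.2 CPM. RNA was sequenced from the whole artery of 3 wild type (WT) and 3 Col15a1-/- (KO) mice with a C57BL/6 background, all fed a Western diet for 18 weeks. In the series title the gene was deleted in smooth muscle cells alone, and the labels name no Cre driver and no other allele. The labels call the sample a lesion with several cell types, so a value averages over all cells in the piece of vessel, and a larger number of cells of a type cannot be told apart from more RNA per cell. Each group has 1 library of the high kind, so every difference is given within a genotype: WT 2 against WT 1 and WT 3, and KO 3 against KO 1 and KO 2.

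Postganglionic sympathetic neurons have their cell bodies in ganglia beside the spine and the great vessels of the neck and upper chest, and send axons into the outer coat of arteries. They make noradrenaline from tyrosine through tyrosine hydroxylase, aromatic amino acid decarboxylase and dopamine beta-hydroxylase, store it in vesicles, release it onto smooth muscle and take it up again through the noradrenaline transporter. Input from the spinal cord reaches them through nicotinic acetylcholine receptors, and they depend on neurotrophic factors for survival. Most messenger RNA of a neuron lies in and near its cell body, although axons carry some.

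To show the DNA in front of genes by which the libraries are told apart, the 250 bases upstream of the RefSeq start are given for Th, Dbh and Prph, whose entries were found in the RefSeq promoter table (build GRCm38.p6, read 5′ to 3′ on the strand of the gene). Th (chr7:142899996-142900245, minus strand) carries the word TGACGTCA, the full cyclic AMP response element, starting 45 bases upstream of the start, in capitals. Dbh (chr2:27165257-27165506, plus strand), which encodes dopamine beta-hydroxylase, carries 3 copies of ATTA, the core word of homeodomain factors, in capitals. Prph (chr15:99054924-99055173, plus strand), which encodes the intermediate filament peripherin, carries TATAAA starting 31 bases upstream of the start, in capitals.
Th: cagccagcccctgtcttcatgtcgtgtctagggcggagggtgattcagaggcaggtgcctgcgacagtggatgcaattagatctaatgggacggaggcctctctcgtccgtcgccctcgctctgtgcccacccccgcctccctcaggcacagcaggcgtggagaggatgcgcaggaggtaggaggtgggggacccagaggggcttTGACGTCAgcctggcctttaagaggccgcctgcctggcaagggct
Dbh: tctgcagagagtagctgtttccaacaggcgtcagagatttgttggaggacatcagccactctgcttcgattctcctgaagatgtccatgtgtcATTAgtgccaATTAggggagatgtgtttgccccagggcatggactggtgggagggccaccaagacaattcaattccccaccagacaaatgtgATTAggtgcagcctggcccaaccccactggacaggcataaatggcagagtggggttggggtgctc
Prph: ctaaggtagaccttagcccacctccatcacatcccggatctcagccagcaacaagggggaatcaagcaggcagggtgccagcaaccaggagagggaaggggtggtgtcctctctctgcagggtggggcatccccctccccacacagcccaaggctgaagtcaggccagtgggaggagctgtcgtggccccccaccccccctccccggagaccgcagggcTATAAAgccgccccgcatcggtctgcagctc

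These words were searched on both strands of the 250 upstream bases of each gene in the table. Of the 660 genes at least 4-fold higher in both WT 2 and KO 3 (defined below), 477 had an entry, and of the 15673 genes tested 11684 did. TGACGTCA was present for 3.77% of the former and 2.88% of the latter, ATTA for 44.7% and 44.9%, and TATAAA for 9.43% and 8.58%. TTCAGCACC, part of the binding site of the neuronal repressor REST, was present for 7 of the 477 genes (1.47%) and for 43 of the 11684 (0.368%). A match is a description of these windows and not a binding site.

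Total gene counts ran from 22223584 to 26982005 per library, so counting error was small for all but genes with few counts. Col15a1 (chromosome 4, 47220884 to 47326037, mm9), the deleted gene, was at 574, 406 and 502 CPM in WT 1, WT 2 and WT 3 and at 194, 198 and 90.9 CPM in KO 1, KO 2 and KO 3, so that the KO libraries lay below all 3 WT libraries. The 45S ribosomal RNA gene Rn45s took 2.04% of counts in WT 2 and 10.4% in KO 3, the lowest and the highest of the 6 libraries, and Lars2 took 0.154% and 3.83%, again the lowest and the highest. The 2 libraries with neuronal transcripts therefore stood at opposite ends of both. With both genes left out before TMM scaling, the counts of genes 4-fold higher and lower in both, defined below, stayed at 660 and 9. Any other part of this in the results below was not tested. All levels below are CPM scaled by the TMM method of edgeR.

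The markers of noradrenergic neurons separated the libraries by an order of magnitude. Th (chromosome 7, 150078681 to 150085871, mm9) was at 23.2 CPM in WT 1, 27.4 in WT 3, 23.7 in KO 1 and 17.8 in KO 2, and at 304 in WT 2 and 858 in KO 3. Dbh (chromosome 2, 27021027 to 27038724) was at 38.4, 52.6, 32.7 and 27.8 CPM in the same 4 libraries, and at 479 and 976 in WT 2 and KO 3. Slc6a2 (chromosome 8, 95484946 to 95525566), which encodes the noradrenaline transporter, was at 106, 153, 110 and 86.9 CPM, and at 1488 and 2454. For all 3 genes the order was the same: KO 3 highest, WT 2 next and the other 4 libraries close together. None of the 3 was absent from those 4 libraries; their mean level in WT 1 and WT 3 was 8.33% of WT 2 for Th and 9.50% for Dbh.

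Differences within a genotype were taken on the log2 CPM scale with a prior count of 2, over the 15673 genes of 24391 with a mean of at least 0.5 CPM. A gene is called higher or lower in both when it differed by at least 4-fold in the same direction in WT 2 and in KO 3. Of the tested genes 660 (4.21%) were higher in both and 9 (0.0574%) were lower in both. At 2-fold the counts were 1231 higher (7.85%) and 66 lower (0.421%). Because the libraries were chosen by a transcript of these samples, all counts of this contrast are a description, no test was made on them and nothing is read from their size against the background. All but 1 of the 660 genes were above all 4 other libraries in both WT 2 and KO 3, as were 3563 of the tested genes (22.7%); the exception was Drc1, for which WT 2 (1.07 CPM) lay below KO 2 (1.35 CPM). For 15 of the 660, the counts in the other 4 libraries summed to under 10, so their fold rests on few reads.

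The 660 genes lay on 20 chromosomes and had a median summed exon length of 3.58 kb, against 2.88 kb over all tested genes. Together they took 0.343% to 0.405% of all counts in the other 4 libraries, 3.25% in WT 2 and 5.11% in KO 3. WT 2 by itself had 676 genes at least 4-fold higher (4.31% of those tested), of which 97.6% were also 4-fold higher in KO 3; KO 3 had 981 (6.26%), of which 67.3% were also 4-fold higher in WT 2. Across all tested genes, which are not independent replicates, the WT 2 and KO 3 differences had a Pearson correlation of 0.79, as a description. These 2 differences share no library.

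**Figure D1:**
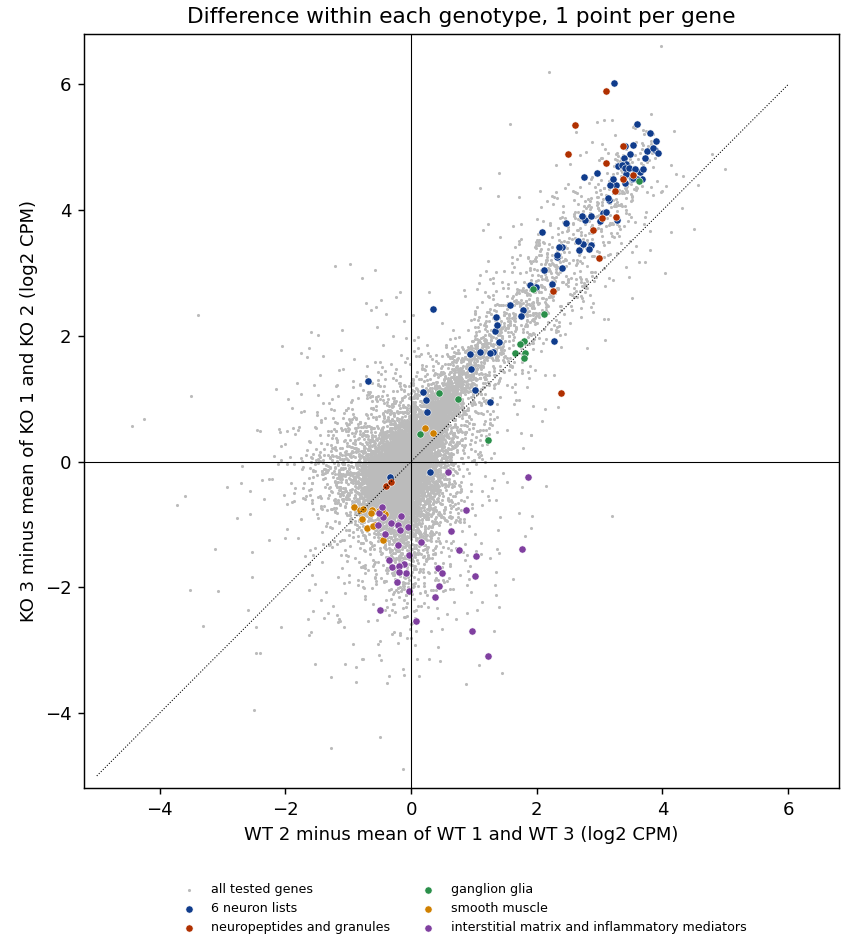
Each point is 1 of the 15673 tested genes; the x axis is WT 2 minus the mean of WT 1 and WT 3 and the y axis is KO 3 minus the mean of KO 1 and KO 2, both in log2 CPM, and the dotted line marks equal differences. Genes of the 6 neuron lists (noradrenaline, transcription factors, cytoskeleton, synaptic vesicles, nicotinic receptors and channels) extend to the upper right, mostly above the dotted line, while matrix and inflammatory genes lie low on the y axis and around 0 on the x axis.

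The genes with the highest smaller-of-the-2 difference, among those with a mean of at least 1 CPM, included several that encode proteins of axons, synapses and ion channels. Prph (chromosome 15, 98885605 to 98889409, mm9) was at 17.8, 23.8, 19.9 and 16.1 CPM in WT 1, WT 3, KO 1 and KO 2, and at 304 and 560 CPM in WT 2 and KO 3. Gap43, which encodes a protein of growing axon tips, was at 6.16 to 8.85 CPM in the other 4 libraries and at 123 and 225 CPM in WT 2 and KO 3. Syt4, a synaptotagmin gene of dense core vesicles, was at 12.8 to 21.5 CPM and at 283 and 561 CPM. The sodium channel gene Scn1a was at 1.00 to 1.99 CPM and at 22.5 and 36.5 CPM. Others so selected were Chodl, Fbll1, Cacng3, Syt16, Cckar, Cyp2j12, Tmem59l, Tm4sf4, Myt1l and Asic2. Fbll1, Chodl, Cacng3 and Syt16 had 0 counts in 1 or more of the other libraries, so their folds are uncertain. Cyp2j12 belongs to a family of near-identical genes whose reads counting can split, so its fold is uncertain too.

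Of the 11 genes for making, storing and clearing noradrenaline, 8 were at least 4-fold higher in both, against 4.21% of all tested genes. Th, whose level chose the libraries, is among the 8, so its call was fixed by that choice. Dbh and Slc6a2, described above, are also among the 8. The median log2 difference over the 11 genes, Th included, was 2.74 in WT 2 and 3.65 in KO 3, while over all tested genes the medians were -0.026 and 0.00040. Ddc, which encodes the decarboxylase, was at 29.0 to 40.3 CPM in the other 4 libraries, 402 in WT 2 and 771 in KO 3. The vesicular monoamine transporter gene Slc18a2 was at 21.8 to 29.3 CPM, then 242 and 535 CPM. Gch1, whose enzyme starts synthesis of the tyrosine hydroxylase cofactor tetrahydrobiopterin, was at 11.01 to 16.4 CPM, then 60.6 and 145 CPM. Of the degrading enzymes, Maoa, the oxidase of noradrenergic neurons, was at 45.1 to 49.5, 313 and 522 CPM, and Maob was at 21.5 to 32.5, 44.4 and 98.96 CPM, short of 4-fold. Pnmt, whose enzyme turns noradrenaline into adrenaline in chromaffin cells, reached no more than 0.98 CPM in any library.

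**Figure D2:**
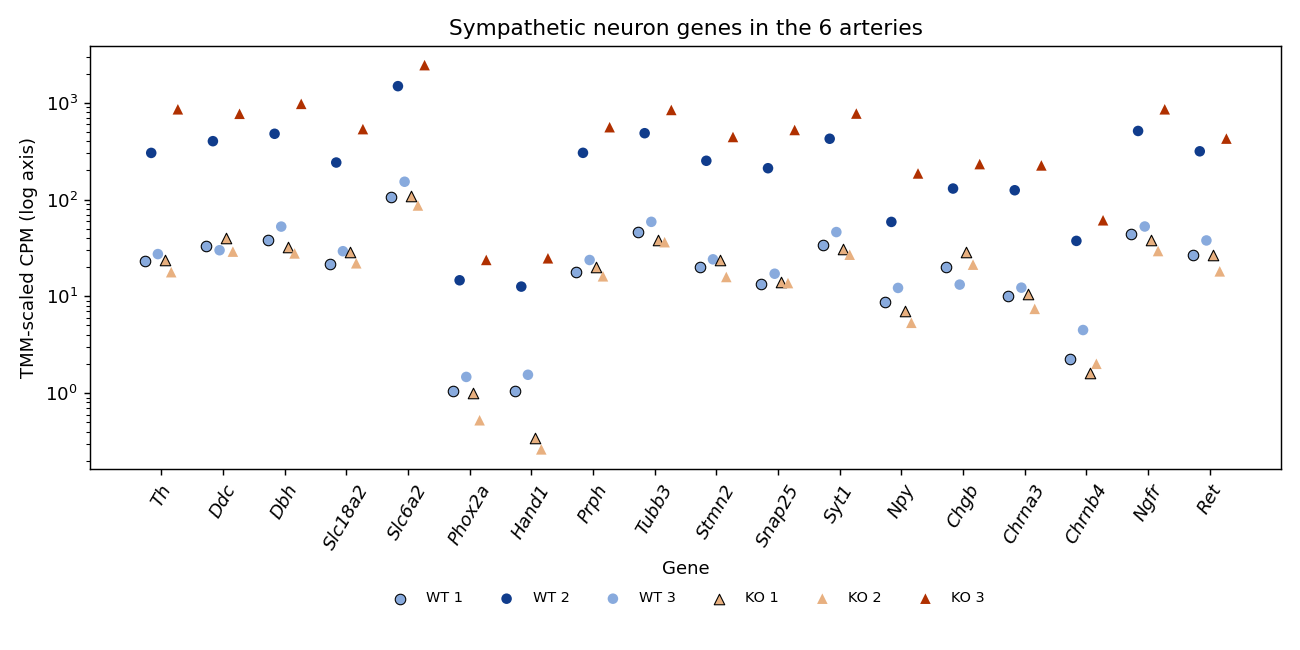
TMM-scaled CPM (log axis) of 18 genes in each of the 6 arteries; circles are WT, triangles are KO, and the dark symbols are WT 2 and KO 3. For every gene shown the 2 dark symbols lie above all 4 light ones, and KO 3 lies above WT 2.

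Transcription factors that specify the sympathetic lineage followed the same order. Of 11 tested, 6 were at least 4-fold higher in both, against 4.21% of all tested genes, and 10 at least 2-fold, against 7.85%. The median log2 difference was 2.12 in WT 2 and 3.05 in KO 3. Phox2a, a homeodomain factor of autonomic neurons, was at 0.52 to 1.47 CPM in the other 4 libraries and at 14.7 and 23.8 CPM in WT 2 and KO 3. Hand1 was at 0.26 to 1.55 CPM and at 12.6 and 24.7 CPM. Hand2, Gata2, Gata3 and Sox11 were higher by less than 4-fold in at least 1 of the genotypes; Gata3 was at 5.97 CPM in WT 2 and 7.49 in KO 3 against 2.49 to 4.49 CPM. Insm1, a factor of neuroendocrine progenitors, was at 0.27 CPM in WT 2 and at 2.36 in KO 3.

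The 18 genes of the neuronal cytoskeleton and neuronal RNA-binding proteins were the most uniform list. All 18 were at least 4-fold higher in both, against 4.21% of all tested genes, with median log2 differences of 3.45 and 4.50. The beta-tubulin gene Tubb3 was at 36.3 to 58.9 CPM in the other 4 libraries, 486 in WT 2 and 844 in KO 3. The neurofilament genes Nefl, Nefm and Nefh were at 8.29 to 11.3, 2.55 to 4.06 and 3.78 to 5.69 CPM in the other 4, at 151, 42.6 and 53.8 CPM in WT 2, and at 268, 72.4 and 101 CPM in KO 3. Elavl4, which encodes the neuronal RNA-binding protein HuD, was at 2.88 to 4.45, 45.6 and 79.9 CPM. Per kilobase of exon, the levels in KO 3 were 576 CPM for Uchl1, 490 for Tubb3, 488 for Th, 428 for Dbh and 404 for Slc6a2; in WT 2 they were 306, 282, 173, 210 and 245 in the same order. On that scale Th and Dbh were below Slc6a2 in WT 2 and above it in KO 3.

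Synaptic vesicle and release genes ranged from a small to a large difference. Of 20 tested, 12 were at least 4-fold higher in both and 18 at least 2-fold, against 4.21% and 7.85% of all tested genes. Snap25, the neuronal membrane SNARE gene, was at 13.4 to 17.1 CPM in the other 4 libraries, 211 in WT 2 and 524 in KO 3, and the calcium sensor gene Syt1 at 26.95 to 46.2, 426 and 775 CPM. Vamp2 (40.1 to 48.5, 86.9 and 116 CPM) and Stx1a (20.3 to 25.8, 24.1 and 49.2 CPM) differed less, and Stx1a in WT 2 lay within the range of the other 4.

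The channel lists gave the receiving side of the neuron. At least 4-fold higher in both were 4 of 5 nicotinic receptor subunit genes tested and 9 of 16 voltage-gated channel genes. Of all tested genes 4.21% were. Chrna3 and Chrnb4, the subunits of the ganglionic receptor, were at 7.43 to 12.3 and 1.60 to 4.49 CPM in the other 4 libraries, at 125 and 37.4 CPM in WT 2, and at 226 and 61.1 CPM in KO 3. Chrna4, a subunit of brain receptors, did not exceed 0.39 CPM in any library. Kcnq3, a subunit of the M-current channel that muscarinic input closes, was at 3.64 to 5.61 CPM in the other 4, at 39.5 CPM in WT 2 and at 60.2 CPM in KO 3.

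Among the 13 neurotrophic genes 3, all encoding receptors, were at least 4-fold higher in both, against 4.21% of all tested genes. They included Ngfr, which encodes the p75 neurotrophin receptor (29.4 to 52.7, then 512 and 858 CPM), and Ret, the receptor of the glial-derived factors (18.1 to 37.8, then 316 and 427 CPM). The other 10 of 13 genes were not, and the list median was -0.09 in WT 2 and -0.03 in KO 3; each of these medians turned positive under other scalings. The ligand gene Bdnf was at 20.8 CPM in WT 2, within the 20.5 to 22.9 CPM of the other 4, and at 10.9 CPM in KO 3, below all of them. Ntrk3, the receptor of neurotrophin-3, was at 90.1 and 108 CPM in WT 2 and KO 3 against 147 to 171 CPM.

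Peptide and granule genes were mostly higher in both. Of 16 tested, 13 were at least 4-fold higher in both, against 4.21% of all tested genes, with medians of 3.02 and 4.09. Npy, which encodes the cotransmitter neuropeptide Y, was at 5.33 to 12.2 CPM in the other 4 libraries, 58.8 in WT 2 and 186 in KO 3. Scg2, a granin gene, was at 5.88 to 11.5, 65.6 and 209 CPM; the prohormone convertase gene Pcsk1 at 2.05 to 3.28, 22.3 and 71.8 CPM; and Gal, the gene of the neuropeptide galanin, at 0.78 to 1.39, 7.62 and 38.5 CPM. Cpe (431 and 547 CPM against 461 to 959) and Penk (7.18 and 9.69 CPM against 8.91 to 12.2) were not higher. Vip, a peptide of cholinergic autonomic neurons, did not exceed 1.54 CPM, and Sst had 0 counts in every library.

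To compare the make-up of the excess, the level above the other 2 libraries of the genotype was divided between the arteries: (KO 3 minus the mean of KO 1 and KO 2) over (WT 2 minus the mean of WT 1 and WT 3), in CPM. Over the 660 genes the median ratio was 1.87, with quartiles of 1.65 and 2.09 and 5th and 95th percentiles of 1.22 and 2.61. List medians of the ratio were taken over genes above the mean of the other 2 libraries of the genotype in both WT 2 and KO 3. They were 2.27 for noradrenaline, 2.20 for peptides and granules, 2.05 for transcription factors and 2.03 for synaptic vesicles. The other medians were 1.91 for nicotinic receptors, 1.86 for the cytoskeleton, 1.75 for channels and 1.60 for neurotrophic genes (4 of 13). Within the peptide list the ratio was 1.76 for Pcsk1n, 2.02 for Vgf and 2.24 for Resp18. A ratio of at least 4 was found for 3 genes: Tm4sf4 (6.65; 0.73 to 1.16 CPM in the other 4, 15.6 in WT 2 and 98.3 in KO 3), Gal (5.87) and Gad2 (4.16; no more than 2.21 CPM in any library). Npy (3.72), Pcsk1 (3.49), Scg2 (3.39), Th (3.00), Gch1 (2.88) and Snap25 (2.60) were also high in KO 3 relative to the median. At the other end 19 genes had a ratio under 1, led by Crabp1 (0.67), Cntn5 (0.72), Grm4 (0.79), Dcx (0.80) and Rgs8 (0.81). Cntn5, a neuronal adhesion molecule gene, was at 16.8 CPM in WT 2 and at 11.6 in KO 3 against 0.57 to 2.55 CPM. With 1 library on each side these ratios have no replicate error.

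**Figure D3:**
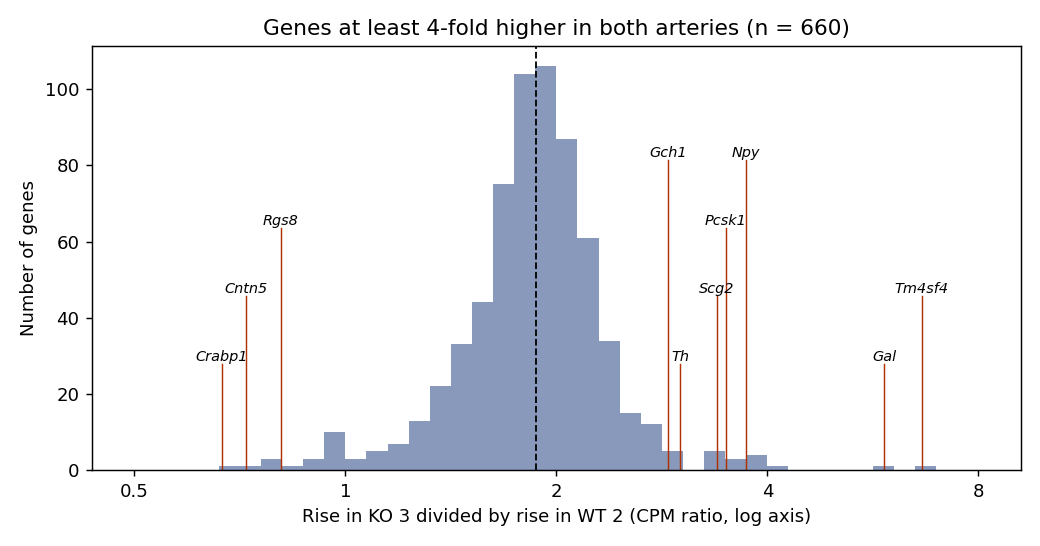
Number of genes (y axis) by the rise in KO 3 divided by the rise in WT 2 (x axis, log scale), for the 660 genes at least 4-fold higher in both; the dashed line is the median of 1.87 and red lines mark named genes. The quartiles are 1.65 and 2.09, with Tm4sf4, Gal, Npy, Pcsk1 and Scg2 to the right and Crabp1 and Cntn5 to the left.

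Glial genes were higher by less than neuronal ones. Of 12 genes of satellite and non-myelinating glia, 2 were at least 4-fold higher in both, against 4.21% of all tested genes. At least 2-fold higher in both were 8, against 7.85%. The medians were 1.77 and 1.73. Fabp7, a marker of satellite glia around ganglion neurons, was at 4.98 to 5.39 CPM in the other 4 libraries, 64.1 in WT 2 and 116 in KO 3. Sox10, the lineage factor of peripheral glia, was at 2.48 to 4.57, 11.3 and 15.1 CPM. The level in the other 2 libraries of the genotype was a median of 29.5% of WT 2 and 31.4% of KO 3 over these 12 genes, and 9.18% and 4.41% over the 18 cytoskeleton genes. None of the 10 myelin genes tested was 4-fold higher in both, while 3 were at least 2-fold higher, against 7.85% of all tested genes. Their medians were 0.56 and 1.14. In both WT 2 and KO 3, 7 of them were above all 4 other libraries, against 22.7% of all tested genes. Mbp was at 30.6 to 42.6, 53.8 and 70.2 CPM.

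Lists of other neurons were mostly at low levels, with some members higher in both. Of the 4 sensory genes tested, 3 were at least 2-fold higher in both, against 7.85% of all tested genes. They were Scn11a (1.17 and 1.26 CPM against 0.17 to 0.56), P2rx3 (1.01 and 3.19 CPM against 0.36 to 1.14) and Avil. Of the sensory genes under the filter, Scn10a, Prdm12, Mrgprd, Pou4f1, Tlx3 and Calca were at no more than 0.35 CPM in any library. Avil, often used as a sensory marker, was at 8.91 to 13.7 CPM in the other 4 and at 115 and 229 CPM in WT 2 and KO 3. The cholinergic genes Chat and Slc18a3 did not exceed 0.27 CPM, while Slc5a7, the choline transporter gene, was at 2.48 and 1.18 CPM against 0.26 to 0.70. Both central nervous system genes tested were at least 2-fold higher in both, against 7.85% of all tested genes. They were Gad2 (0.60 and 2.21 CPM against 0.00 to 0.09) and Aqp4 (1.61 and 5.04 CPM against 0.52 to 3.97). The central nervous system genes Slc17a7, Slc32a1, Neurod6, Olig1, Olig2 and Mog did not exceed 0.39 CPM. Slc17a6 and Gad1 were also under the filter. All 10 genes of that list summed to 3.25 CPM in WT 2 and 9.49 CPM in KO 3, against 1.00 to 4.80 CPM in the other 4. Olfr78, an oxygen-linked receptor gene of carotid body glomus cells that some autonomic neurons also express, was at 2.86 to 6.73, 15.9 and 28.7 CPM. The glomus cell genes Cox4i2 and Ndufa4l2 were at 2.35 to 4.68 and 3.19 to 7.84 CPM over all 6 libraries, with neither WT 2 nor KO 3 above all the others by 4-fold. Of the 7 tested genes of the chromaffin and glomus cell list, 2 were at least 2-fold higher in both, against 7.85% of all tested genes. All 7 were higher in KO 3, while 2 were higher and 5 lower in WT 2. The list summed to 380 CPM in WT 2 and 692 CPM in KO 3, against 285 to 404 CPM in the other 4.

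Adrenergic receptors divided by subtype. The alpha-2 receptor genes, some of whose products act as autoreceptors on sympathetic terminals, were the 3 of 10 tested genes at least 4-fold higher in both, as were 4.21% of all tested genes: Adra2a (2.88 to 5.70, then 23.0 and 28.8 CPM), Adra2b (1.14 to 2.67, then 19.7 and 36.6 CPM) and Adra2c (1.38 to 2.09, then 9.13 and 15.4 CPM). The alpha-1 receptor genes of smooth muscle and the beta receptor genes were not; Adra1d was at 9.66 and 17.2 CPM against 11.8 to 29.5 CPM. Npy1r, the vascular receptor of neuropeptide Y, was at 23.8 and 50.3 CPM against 19.7 to 60.3 CPM.

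**Figure D4:**
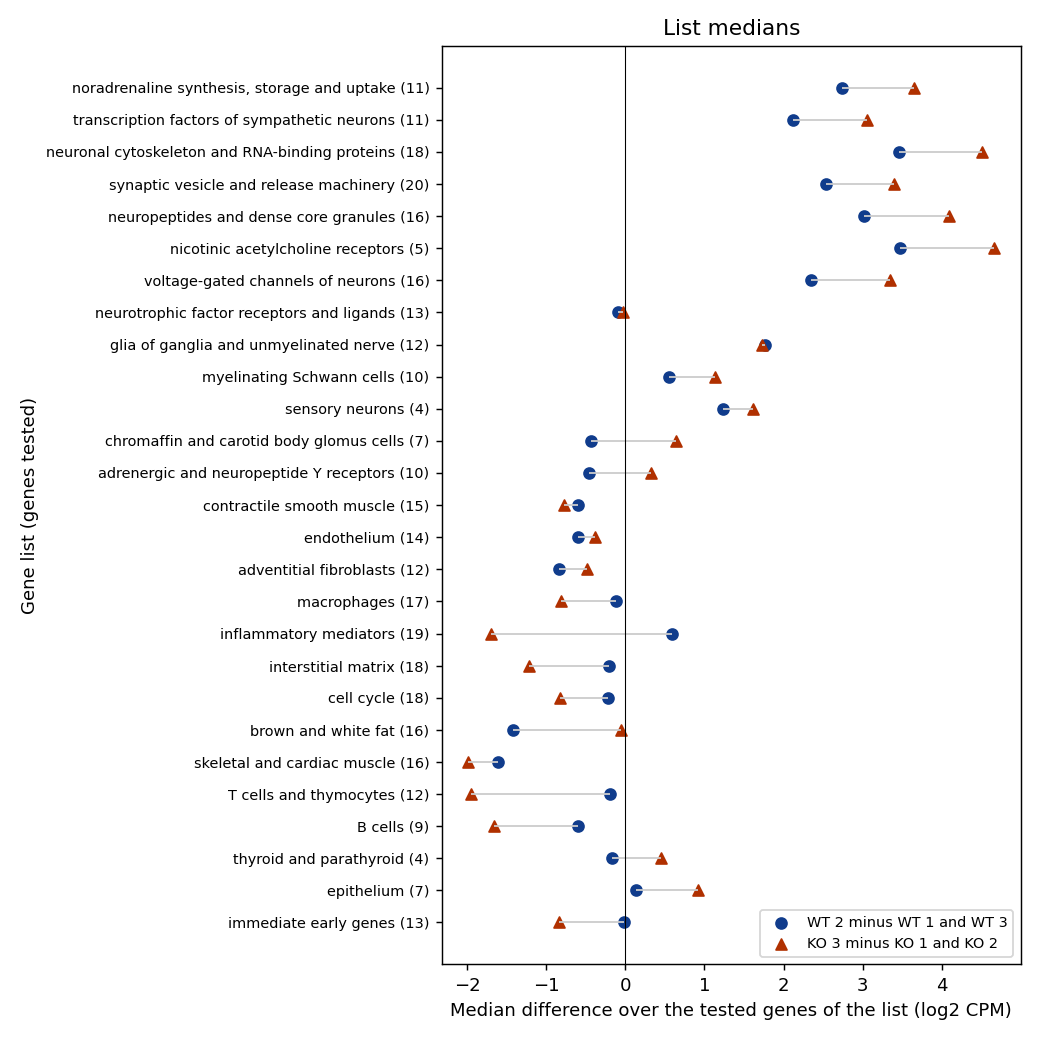
Median difference in log2 CPM (x axis) over the tested genes of each list with at least 4 tested genes (y axis; number of genes in brackets), for WT 2 (circles) and KO 3 (triangles). The neuron lists lie at 2.12 to 4.66, apart from the neurotrophic list near 0, and the inflammatory list is at 0.59 in WT 2 and -1.69 in KO 3.

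Vessel wall lists had medians below 0 in both libraries, by less than 2-fold. At least 2-fold lower were 4 of 15 contractile genes in KO 3 (5.04% of all tested genes) and 4 of 12 fibroblast genes in WT 2 (2.60%). Of 15 contractile smooth muscle genes, 12 were below all 4 other libraries in both WT 2 and KO 3, against 15.9% of all tested genes, with medians of -0.60 and -0.78. Acta2, smooth muscle actin, was at 2908, 1875, 2001 and 4535 CPM in WT 1, WT 3, KO 1 and KO 2 and at 1569 and 1498 CPM in WT 2 and KO 3. Myh11, smooth muscle myosin, was at 3801, 3339, 4294 and 5675 CPM and at 2189 and 2377 CPM. Endothelial genes had medians of -0.59 and -0.39, with 8 of 14 below all 4 others, and adventitial fibroblast genes -0.84 and -0.48, with 7 of 12. Thy1, on the fibroblast list and the T cell list and also a neuronal surface gene, was the exception at 126 and 223 CPM against 39.5 to 47.7 CPM. Skeletal and cardiac muscle genes had the lowest medians in both among lists with at least 4 tested genes, -1.60 and -1.98, with wide spread among the other 4: the thick filament gene Mylpf was at 7.87, 0.74, 13.6 and 2.18 CPM, and at 0.40 and 0.59 CPM. Among the 15 genes selected as lowest in both, Rag1, a gene of developing lymphocytes (0.27 and 1.34 CPM against 1.73 to 14.9), and the muscle genes Mylpf, Trdn, Tnni2, Mybpc2 and Myot stood with Lep, the leptin gene of fat, and the carboxypeptidase genes Cpz and Cpxm1. How far these other tissues take part in the neuronal contrast was not tested.

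Inflammatory genes differed in direction between the 2 libraries, and matrix and fat genes differed in size. WT 2 had 408 genes at least 2-fold lower than WT 1 and WT 3 (2.60% of those tested) and 42 at least 4-fold lower (0.268%), and KO 3 had 790 (5.04%) and 147 (0.938%) against KO 1 and KO 2. Opposite by 2-fold were 25 genes higher in WT 2 and lower in KO 3 (0.160%) and 24 lower in WT 2 and higher in KO 3 (0.153%). All 19 inflammatory mediators were lower in KO 3 than in KO 1 and KO 2, with a median of -1.69, while 14 were higher in WT 2 than in WT 1 and WT 3, with a median of 0.59. Il6 was at 10.5, 12.04 and 3.52 CPM in WT 1, WT 2 and WT 3 and at 1.68, 3.63 and 0.32 CPM in KO 1, KO 2 and KO 3. Of 18 interstitial matrix genes, all were lower in KO 3 (median -1.22) and 16 in WT 2 (median -0.20); Fn1, fibronectin, was at 10774, 9758 and 11603 CPM in the 3 WT libraries and at 6699, 6539 and 1954 CPM in the 3 KO libraries. Macrophage genes had medians of -0.11 and -0.81, the first of which turned positive with total-count scaling and without WT 3; Gpnmb was at 1361 CPM in WT 2 and at 177 in KO 3 against 1118 to 2378 CPM. T cell genes were at -0.20 (positive without WT 3) and -1.95, and cell cycle genes at -0.22 and -0.83. Fat genes were lower mainly in WT 2, with all 16 lower there (median -1.42). Their median in KO 3 was -0.05, which turned positive without KO 1 and with scaling to genes outside the neuron and glia lists. Ucp1, the uncoupling protein of brown fat, was at 121, 25.3 and 95.4 CPM in the WT libraries. In the KO libraries it was at 193, 225 and 288 CPM. KO 3 was thus the library with the most neuronal transcripts and the least of most inflammatory and matrix transcripts, and WT 2 shared the first property and not the second.

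Since each genotype had 1 library of the high kind, genotype could be tested beside it. In edgeR's quasi-likelihood test with an indicator for WT 2 and KO 3, 0 of 15673 genes (0%) passed an adjusted p of 0.05 in either direction; the smallest adjusted p was 0.0675, and 2770 genes had an unadjusted p under 0.05. DESeq2 with the same design called 939 genes, 376 higher and 563 lower in KO, so the count rests on the tool. Col15a1 had a log2 fold change of -1.69 (SE 0.17, adjusted p 0.146 by edgeR). Of 110 tested genes of the 8 neuron lists, 0 passed in edgeR (smallest adjusted p 0.162), and 14 had an unadjusted p under 0.05, which is 12.7% against 17.7% of all genes tested. The estimate was higher in KO for 85 and lower for 25 of them, and higher for 9336 of all 15673 genes, with a median log2 fold change of 0.24 against 0.06. The indicator treats WT 2 and KO 3 alike, while over the 660 genes the median ratio of the excess in KO 3 to that in WT 2 was 1.87. The part of this unequal excess in the genotype estimates of neuronal genes was not tested. Th, whose level set the indicator, is among the 110, and no genotype value is given for it. The granule gene Scg2 had 1.03 (SE 0.24) and Chga 1.01 (SE 0.22); DESeq2 called both of these, and Chgb, Kcna1 and Maob, among 6 in these lists. The p-values rest on the spread between animals that is left after genotype and the indicator are fitted, with 3 animals in each group.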

How the data were processed

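Raw read counts per gene were deposited and had not been normalized. Per the file headers, featureCounts 1.4.6-p4 summed reads over the exons of each gene name in an mm9 annotation, with no option for strand or multi-mapping reads, so reads shared by overlapping or near-identical genes can be lost. The submitters' processing notes also list CASAVA, Subread, DESeq2 and STAR (with 3.0 as its version). In the deposited summary of read counts, 32.6% to 36.9% of alignments were assigned to genes. Groups and replicate numbers came from the sample titles.

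Counts were scaled with TMM in edgeR 4.0.16 (R 4.3.3), and genes with a mean of at least 0.5 CPM over all 6 libraries were kept. Within-genotype differences used log2 CPM with a prior count of 2 and have no test. Genotype was tested with edgeR (glmQLFit and glmQLFTest, two-sided, Benjamini-Hochberg over all tested genes, threshold 0.05) with an indicator of the libraries above 100 CPM of Th. limma 3.58.1 (voom) and DESeq2 1.42.0 were alternatives. The libraries, the 31 gene lists and the rule for named genes were chosen with earlier results of these data known. Named were Th, Dbh, Slc6a2 and Col15a1, the 15 genes highest and the 15 lowest in both, up to 8 opposite genes per direction and in each list up to 5 members with the largest differences plus the most abundant member; other genes were named after their values were seen. Some genes under this rule are not reported here. On simulated counts over 15673 genes, the genotype step recovered 95 of 100 genes changed 4-fold and 72 of 100 changed 2-fold. It made 18 false calls. The within-genotype step recovered 195 of 200 genes raised 8-fold. In the real libraries Col15a1, with a log2 fold change of -1.69, had an adjusted p of 0.146 by edgeR. The simulated recovery is a check of the steps and not a measure of power in these libraries. Promoters came from RefSeq (GRCm38.p6); gene coordinates are mm9. No pair of libraries agreed within sampling noise.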

Additional observations from a re-analysis of the deposited data

Results flagged for a closer look

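For 16 genes WT 2 and KO 3 lay on opposite sides of the other libraries of their genotype by at least 2-fold, chosen as the opposite genes with the largest smaller difference; 25 genes (0.160% of those tested) were 2-fold higher in WT 2 and 2-fold lower in KO 3, and 24 (0.153%) the reverse. Each side is 1 library against 2, and the difference between the genotypes was not tested. All values below are log2 differences, first in WT 2 and then in KO 3.

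Higher in WT 2 and lower in KO 3 were the collagenase gene Mmp13 (1.44 and -3.37), the chemokine gene Ccl22 (1.403 and -2.31), the checkpoint receptor gene Pdcd1 (1.398 and -1.45), the cytokine gene Il1b (1.77 and -1.396), the interleukin 2 receptor gene Il2ra (1.36 and -1.397), the cell fusion gene Dcstamp (1.35 and -1.75), the osteoclast factor gene Tnfsf11 (1.32 and -2.70) and Fam26f (1.26 and -1.54). Mmp13 was at 76.6, 171 and 52.0 CPM in WT 1, WT 2 and WT 3 and at 38.5, 28.8 and 3.15 CPM in KO 1, KO 2 and KO 3.

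Lower in WT 2 and higher in KO 3 were the collectin gene Sftpd (-1.74 and 1.72), Dmbt1 (-1.62 and 1.81), the lactoferrin gene Ltf (-1.48 and 2.02), Pglyrp1 (-1.41 and 1.68), the lipase anchor gene Gpihbp1 (-1.45 and 1.37), the antimicrobial lectin gene Reg3g (-1.21 and 3.11), Tcf23 (-1.19 and 1.20) and Adgre4 (-1.18 and 1.21). Reg3g was at 0.69 to 3.79 CPM in WT 1, WT 2, WT 3 and KO 1, 100.4 CPM in KO 2 and 75.9 CPM in KO 3, so its difference in KO 3 rests on the low level of KO 1. KO 2 was also above KO 3 for Ltf (86.5 and 60.5 CPM), Dmbt1 (26.1 and 12.8 CPM), Pglyrp1 (9.09 and 7.41 CPM) and Sftpd (5.20 and 4.33 CPM), so these differences in KO 3 too rest on KO 1, at 2.50, 0.43, 0.52 and 0.26 CPM in the same order.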

How the results depend on the processing

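At 2-fold in place of 4-fold, 1231 genes were higher and 66 lower in both libraries; at 8-fold, 278 and 0. Leaving out 1 replicate gave 636 to 981 higher and 7 to 147 lower, with 147 without WT 2, 42 without KO 3 (each then a description of 1 library) and 17 without WT 3. Other scalings, filters and prior counts gave 606 to 743 higher and 6 to 11 lower.

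The number of genes called for genotype, 0 by edgeR, was 939 by DESeq2 and 0 by limma-voom; it was 2 with the mean level of Th, Dbh and Slc6a2 as covariate (Col15a1 and Gbp2b), 2 with no filter (the same genes), and 1 without WT 2 and KO 3 (Gbp2b). Leaving out 1 replicate gave 0 to 12, with 12 without KO 1, 11 of them higher in KO, and 1 without KO 3. The adjusted p of Col15a1 ran from 1.69e-17 by DESeq2 to 0.9999 with the replicate block. The cause of these differences was not tested.

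Deviations from the group means had correlations of 0.46, -0.71 and -0.61 for replicates 1, 2 and 3, and 0 of 3 KO libraries correlated best with the WT library of its own number. WT 2 and KO 3 share the neuronal transcripts under unlike numbers, so these values cannot decide whether replicate numbers pair the samples. With the replicate block (and no indicator) 0 genes were called. The scaling to stable genes outside the neuron and glia lists was added after seeing the data. Few counts limit genes near 0, and 1 library per genotype on the high side leaves its differences without replicate error.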

Other observations

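Genes of cholesterol synthesis were higher in both libraries with neuronal transcripts; this list was drawn up after the values were seen. Of 20 tested enzymes from acetyl-CoA to cholesterol, 19 were above all 4 other libraries in both WT 2 and KO 3, against 22.7% of all tested genes. At least 2-fold higher in both were 17, against 7.85%, and at least 4-fold higher were 6, against 4.21%. Median log2 differences were 1.46 and 2.01. Sqle, squalene epoxidase, was at 11.6 to 15.8 CPM in the other 4 libraries and at 72.3 and 111 CPM in WT 2 and KO 3, and Fdft1, squalene synthase, at 21.6 to 25.98, 88.7 and 149 CPM. The exception, Lbr, which also encodes a nuclear lamina receptor, was at 36.8 and 40.8 CPM against 42.0 to 50.7. Of 8 genes of uptake and its regulation, 2 were at least 2-fold higher in both, against 7.85% of all tested genes. Among them the sterol carrier gene Stard4 was at 6.14 to 9.02, 26.9 and 34.9 CPM. The regulators Srebf1 (121 and 131 CPM against 137 to 150) and Scap (62.9 and 70.2 against 53.9 to 63.1) differed little. The regulators Srebf2 (78.7 and 96.6 CPM against 56.6 to 59.7) and Insig1 (79.3 and 131 against 50.4 to 68.1) were above all 4 other libraries in both, by less than 2-fold in WT 2.

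Position genes of the Hox clusters, also looked up after the values were seen, differed by cluster. Hoxc4 was at 0.23 to 0.60 CPM in the other 4 libraries and at 4.03 and 8.15 CPM in WT 2 and KO 3, and Hoxc5 at 0.09 to 0.55, 1.21 and 3.03 CPM; the 2 genes are neighbours, and reads over any exon they share would not be counted. None of the 11 tested Hoxa and Hoxb genes was 2-fold higher in both, and their medians were -0.53 and -0.22. Receptors for other transmitters were among the 660 genes. Of 7 tested serotonin receptor genes, 3 (Htr3a, Htr3b and Htr5a) were at least 4-fold higher in both, against 4.21% of all tested genes. The other tested ones, Htr1b, Htr2a, Htr2b and Htr7, were not, and were lower in KO 3 than in KO 1 and KO 2. The serotonin-gated channel genes Htr3a and Htr3b were at 18.3 to 26.8 and 3.14 to 5.28 CPM in the other 4, at 316 and 59.6 CPM in WT 2, and at 537 and 99.1 CPM in KO 3. Of the muscarinic receptor genes, Chrm1, Chrm2 and Chrm4 were at least 4-fold higher in both and Chrm3 was not (2.31 and 1.34 CPM against 1.91 to 4.10). The opioid receptor genes Oprl1, Oprd1 and Oprk1 were 4-fold higher in both and Oprm1 was not. Of 34 kinesin heavy chain genes, 4 were at least 4-fold higher in both, against 4.21% of all tested genes. They were Kif1a, Kif5a, Kif5c and Kif21a. Kif5a was at 17.5 to 28.8, 267 and 485 CPM, while Kif5b, the form made in most cells, was at 285 to 345, 315 and 364 CPM.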
